A study of Homo sapiens with 2 samples.

Results

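HSPA1A and HSPA1B, which encode the stress-inducible HSP70 chaperone, and DNAJA3, which encodes a partner protein of HSP70, all gave a brighter probe signal with LBH589 than with DMSO in SK-NEP-1 cells. The HSPA1A probe was 13.5-fold higher, the HSPA1B probe 5.23-fold higher and the DNAJA3 probe at least 35.4-fold higher under the scaling used, with 1 array per condition and therefore no test. The probes are those whose gene symbol in the study's tables of mRNAs higher or lower after LBH589 was HSPA1A, HSPA1B or DNAJA3, and they were joined to the scanner values by probe name. They are 3 of the 1741 gene symbols in the rows of those tables used here, with 1 named probe per gene, and 3 of the 58921 probes of the array that were not controls. The rows used here are only part of the study's tables and most probes have no name, so other probes of these genes may be on the array, and whether the probes of a gene gave like values was not tested. The tables list only mRNAs that changed on these same arrays, so the genes were in effect chosen by the size of their difference between LBH589 and DMSO, which is given as a description.

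The SK-NEP-1 line, an established line of human cells, is given by the labels as kidney, from a Wilms tumor. One culture received 100 nM LBH589 (panobinostat), which blocks histone deacetylases, so that acetyl groups stay on histones and other proteins, and the treatment lasted 24 h. The control culture received DMSO, the solvent, in the same volume. RNA of each culture, with rRNA removed, was labeled with Cy3, a green dye, and put on 1 Arraystar array for mRNAs and long non-coding RNAs. Only this 1 line is on the arrays, so the values describe it and no other cells. The array measures RNA of the whole culture, in which fewer cells of a type and less RNA per cell cannot be told apart, and a difference between the cultures, the RNA preparations or the labeling reactions cannot be told apart from the treatment.

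HSP70 proteins bind short hydrophobic stretches of unfolded proteins and hold or release them in a cycle driven by ATP. J-domain proteins, the family of DNAJA3, bring clients to HSP70 and speed up its ATP hydrolysis. Exchange factors, which include some of the BAG proteins, reset HSP70 by releasing ADP. HSPA1A and HSPA1B lie side by side in the class III region of the major histocompatibility complex, have almost no introns, encode the same or nearly the same protein, and are textbook targets of heat shock factor 1. The DNAJA3 protein, also called Tid1, works mainly in mitochondria with the mitochondrial HSP70.

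Because HSPA1A and HSPA1B are near-copies, what each probe reads depends on its sequence. The probes as given in the study's tables are shown here, with the first 30 bases of the HSPA1A and HSPA1B probes and all 60 bases of the DNAJA3 probe, each 5′ to 3′. Capitals mark the 14 bases that the HSPA1A and HSPA1B probes share.
HSPA1A: ggtaGATTAGGGGCCTTTccaagattgctg
HSPA1B: aggtgGATTAGGGGCCTTTgttctttagta
DNAJA3: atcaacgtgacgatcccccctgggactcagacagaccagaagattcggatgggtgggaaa
Outside the shared run the HSPA1A and HSPA1B probes differ: aligned over their whole length, 41 of 64 columns were identical (64.1%). No other of the 3955 listed probes shared a run of 20 bases with any of the 3. The tables name no second transcript for the HSPA1A and HSPA1B probes, and name NM_005147, another DNAJA3 transcript, for the DNAJA3 probe. How much HSPA1A RNA the HSPA1B probe binds, and the reverse, was not tested.

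The HSPA1A probe (transcript NM_005345, hg19 chr6:31783291-31785719, plus strand) had a processed signal of 3390 with DMSO and 26218 with LBH589. It was bright on both, and neither spot was saturated. Set against the 75th percentile of all probes on its own array, the log2 value was 4.17 with DMSO and 7.92 with LBH589. The difference of LBH589 minus DMSO was 3.75 on the log2 scale, or 13.5-fold, with a measurement error of 0.20. That error is the one the scanner software gives for the spots, and it leaves out the spread between cultures, which 1 array per condition cannot show.

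The HSPA1B probe (ENST00000375650, hg19 chr6:31795512-31798031, plus strand) had a signal of 219 with DMSO and 659 with LBH589. The scaled log2 value was 0.22 with DMSO and 2.60 with LBH589, a difference of 2.39 or 5.23-fold, with an error of 0.21. The gene begins 9793 bases after the end of HSPA1A on the same strand. Both neighbours were thus higher with LBH589, and the difference of HSPA1A was the larger by 1.36 on the log2 scale, with an error of 0.29 from the spots. This gap between the differences was 1.06 at the lowest and 1.63 at the highest over the alternative ways of processing. It compares 2 probes on 2 arrays, not 2 genes over replicates.

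The DNAJA3 probe (NM_001135110, hg19 chr16:4475806-4506775, plus strand) had a signal of 4.25 with DMSO, where it was not well above background, and of 433 with LBH589, where it was. The DMSO value is the lowest that the array holds, and 8635 probes (14.7% of all) share it. The background-subtracted brightness of that spot was below 0, at -13.3. The DMSO side therefore gives only a bound, and it was replaced by 21.3, the lowest signal among probes well above background on that array. Against this bound the difference was 5.14 on the log2 scale, at least 35.4-fold, with an error of 0.14 for the LBH589 spot. With the DMSO spot's own value the difference would be 7.47, with an error of 1.45, so the size beyond the bound is not known. The bound depends on the processing too: the difference was 4.35 without scaling and 3.22 with normexp and quantile normalization, both below 5.14.

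**Figure D1:**
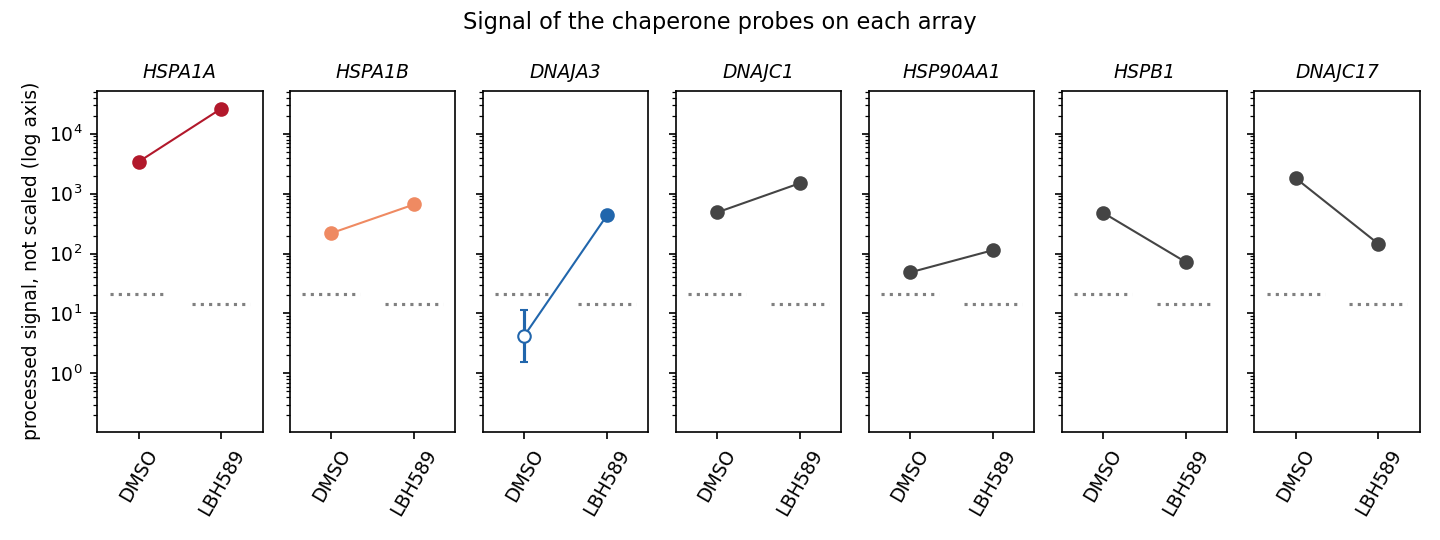
Processed signal (log axis, before scaling between arrays) of the probes of HSPA1A, HSPA1B, DNAJA3 and of the 4 other listed genes whose symbol starts with HSP or DNAJ, on the DMSO and the LBH589 array. Bars are measurement errors of the spot, the dotted lines are the lowest signal well above background on each array (21.3 and 14.5), and the open circle is DNAJA3 on the DMSO array, at 4.25, the only point below its line.

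The negative control spots, which match no human transcript, give the brightness of an empty spot. On the DMSO array the 867 negative control spots had median pixel signals from 42 to 155.5, with a median of 61. The DNAJA3 spot, at 49, lay inside that range, with 60 of the control spots (6.92%) below it. On the LBH589 array the 864 control spots ran from 33 to 97.5, with a median of 48. The DNAJA3 spot there, at 489.5, was above all 864. HSPA1A, at 3466 with DMSO and 27419 with LBH589, and HSPA1B, at 277.5 and 707.5, were above every control spot on both arrays. So the HSPA1A and HSPA1B probes stood clear of empty spots in both cultures, and the DNAJA3 probe did so in the LBH589 culture only. Some other probes described below, though well above background on both arrays, lay inside the control range on 1 array. With DMSO these included UGGT1 (90), BAG6 (113), HSP90AA1 (113.5), COL1A1 (145.5) and RP11-167N4.2 (147). With LBH589 they included BAG2, at 87. The folds of these probes rest on a weak signal on that array.

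**Figure D2:**
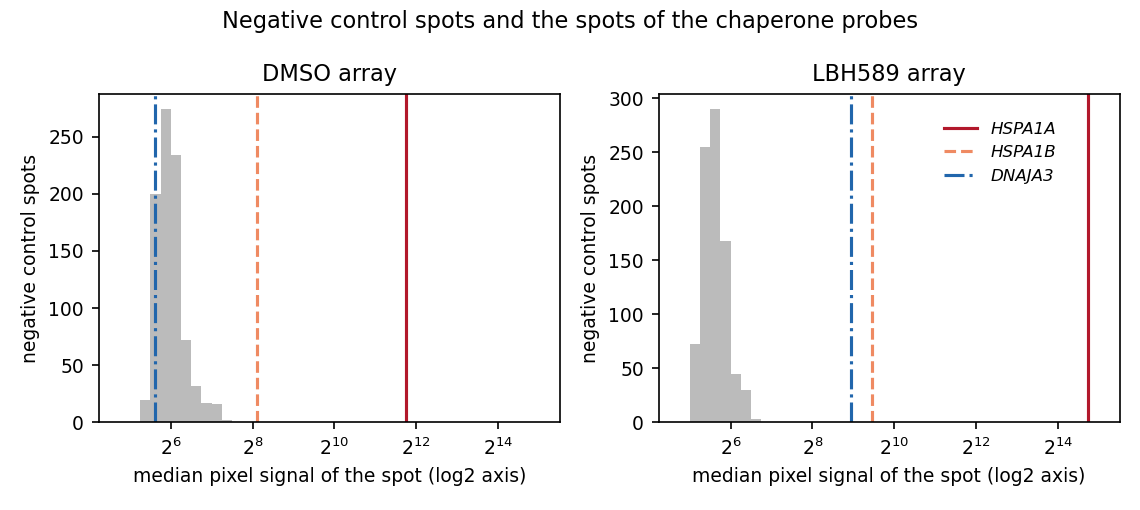
Median pixel signal (log2 axis) of the negative control spots on the array of DMSO (867 spots) and of LBH589 (864 spots), as grey histograms, with a line for each of the HSPA1A, HSPA1B and DNAJA3 spots. The DNAJA3 line, at 49, falls among the control spots on the DMSO array and lies to the right of all of them, at 489.5, on the LBH589 array.

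Low DMSO values of this kind are common on the array, so DNAJA3 was set beside the other probes at the same value. Of the 8635 probes at 4.25 on the DMSO array, 407 were well above background on the LBH589 array. Their median LBH589 signal was 24.2, and 6 of them were brighter there than DNAJA3, the brightest at 4241.

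Among the 41574 probes that at least 1 array measured well above background, 242 had a larger difference than HSPA1A, 969 a larger one than HSPA1B and 55 a larger one than the bound of DNAJA3. All 3 probes passed 2-fold higher, as did 12.3% of all 41574 probes, and all 3 passed 5-fold, as did 2.49%. Since these values chose the probes, nothing is read from that count. HSPA1B passed 5-fold only narrowly, at 5.23, and was 3.01-fold higher at the lowest over the alternative ways of processing. The median difference over the 41574 probes was -0.014.

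**Figure D3:**
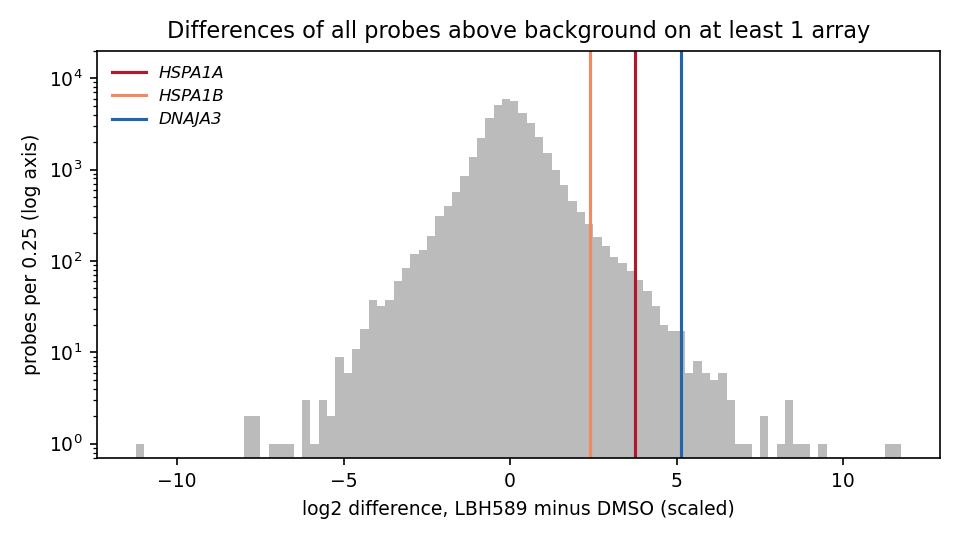
Log2 difference of LBH589 minus DMSO over the 41574 probes that at least 1 array measured well above background, as the number of probes per step of 0.25 (log axis), with lines at HSPA1B (2.39), HSPA1A (3.75) and the bound of DNAJA3 (5.14). The histogram is centred near 0 (median -0.014), and all 3 lines lie in its right tail.

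The sequences upstream of the genes are printed because HSPA1A and HSPA1B were both higher with LBH589 and carry near-identical promoters. Whether the promoters bear on the differences was not tested. They are from RefSeq, build GRCh38.p14, and their positions are not to be mixed with the hg19 positions above. Each is the 250 bases before the annotated start, on the plus strand, 5′ to 3′, at chr6:31815293-31815542 for HSPA1A, chr6:31827488-31827737 for HSPA1B and chr16:4425618-4425867 for DNAJA3. Capitals mark a match to GAANNTTC, a pair of inverted units of the heat shock element that heat shock factors bind, in which N is any base.
HSPA1A: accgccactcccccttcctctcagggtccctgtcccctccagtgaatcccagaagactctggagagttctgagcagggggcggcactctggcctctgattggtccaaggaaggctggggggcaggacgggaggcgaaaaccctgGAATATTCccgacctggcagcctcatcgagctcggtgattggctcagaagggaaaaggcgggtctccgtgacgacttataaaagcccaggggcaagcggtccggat
HSPA1B: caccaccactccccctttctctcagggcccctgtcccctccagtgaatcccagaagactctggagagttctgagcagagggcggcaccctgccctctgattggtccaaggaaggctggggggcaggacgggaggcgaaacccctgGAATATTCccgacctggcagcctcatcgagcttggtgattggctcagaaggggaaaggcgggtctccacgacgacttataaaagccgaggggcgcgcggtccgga
DNAJA3: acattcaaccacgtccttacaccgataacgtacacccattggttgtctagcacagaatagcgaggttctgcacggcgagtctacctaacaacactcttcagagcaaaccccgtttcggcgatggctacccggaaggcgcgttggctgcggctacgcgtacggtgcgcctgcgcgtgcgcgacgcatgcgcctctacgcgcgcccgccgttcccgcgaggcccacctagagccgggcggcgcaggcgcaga
In alignment the HSPA1A and HSPA1B windows were identical at 235 of 251 columns (93.6%), with a longest shared run of 49 bases. The DNAJA3 window was 52.6% identical to that of HSPA1A and 52.3% to that of HSPA1B.

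Short motifs were searched on both strands, and a match is only a match of letters. GAANNTTC occurred 1 time in HSPA1A, at bases 106 to 99 before the start, and 1 time in HSPA1B, at bases 105 to 98. It was absent from the DNAJA3 window and present in 5.78% of the 35116 RefSeq promoter windows of the same length. The other order of units, TTCNNGAA (6.62% of windows), had no match in any of the 3, nor did the elements of 3 alternating units that contain both of these motifs, in either order (each in 0.441% of windows). The TATA box letters TATAAA (10.7% of windows) were present 1 time in HSPA1A, at bases 30 to 25, and 1 time in HSPA1B, at bases 29 to 24, and not in DNAJA3. CCAAT (32% of windows) had 2 matches each in HSPA1A and HSPA1B and 1 in DNAJA3. GGGCGG (42.6%), the core of a GC box, had 1 match in each of the 3.

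Of the other listed symbols starting with HSP or DNAJ, 4 were measured on both arrays, 2 higher and 2 lower with LBH589. DNAJC1, a J-domain protein of the endoplasmic reticulum membrane (hg19 chr10:22045477-22292650), had a signal of 486 with DMSO and 1491 with LBH589, a scaled log2 difference of 2.42 or 5.34-fold (error 0.20). HSP90AA1 encodes the stress-inducible form of cytosolic HSP90, which takes clients from HSP70 (hg19 chr14:102547075-102606086). Its probe, named for transcript NM_001017963, had 48.5 with DMSO and 113 with LBH589, a difference of 2.03 or 4.07-fold (error 0.24). With DMSO the HSP90AA1 spot lay inside the range of the negative control spots. Whether the probe reads other HSP90AA1 transcripts was not tested. The DNAJC1 and HSP90AA1 probes stood higher with LBH589, as those of HSPA1A, HSPA1B and DNAJA3 did.

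The others stood lower. HSPB1, a small heat shock protein also called HSP27, which holds unfolded proteins without ATP (hg19 chr7:75931875-75933614), had a signal of 482 with DMSO and 72.4 with LBH589, a log2 difference of -1.94, 3.83-fold lower (error 0.21). DNAJC17, a J-domain protein with an RNA recognition motif (hg19 chr15:41060067-41099676), had 1805 and 145, a log2 difference of -2.84, 7.16-fold lower (error 0.21). The J-domain family thus held probes that moved in both directions. GAANNTTC had 1 match in the 250 bases before HSPB1 and none in those before HSP90AA1 and DNAJC17, while DNAJC1 was not analysed for it.

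The wider chaperone network was described with 10 lists of 161 genes, some of which stand in more than 1 list. Of these, 18 genes (20 probes) are described, because gene names come from the rows of the study's tables used here, which hold changed probes and only part of them. A count here therefore describes the named probes only, and the other genes of the lists were not analysed here. Over the 20 probes, 13 were at least 2-fold higher with LBH589 (12.3% of all probes) and 6 were at least 2-fold lower (10.2% of all probes). The remaining 1, of ERN1, had a lower bound under 2-fold, so whether it passed 2-fold is not known. The median log2 difference was at least 2.32, since 3 of the probes enter at a bound (2.40 with their own values). Without HSPA1A, HSPA1B and DNAJA3 the counts were 10 higher, 6 lower and 1 with a bound under 2-fold, with a median of at least 2.18 (2.25 with own values). The over-all median of -0.014 stands for all 41574 probes, listed or not.

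Within the HSP70 family, 3 of 17 genes were named, and all 3 were at least 2-fold higher (12.3% of all probes). Their median was at least 2.57, which is the bound of HYOU1 (3.25 with its own value). Nothing is read from this count or from those of the lists below, since the rows hold changed probes. Next to HSPA1A and HSPA1B the named gene was HYOU1, the large HSP70 relative of the endoplasmic reticulum. It had a signal of 13.3 with DMSO, not well above background, and 72.7 with LBH589, at least 5.94-fold higher. The bound of HYOU1 depends on the processing, and with normexp and quantile normalization the gene was 2.16-fold higher. Of the 49 J-domain genes, 3 were named, with DNAJA3 and DNAJC1 higher, DNAJC17 lower and a median of 2.42. Of the 14 genes in the list of exchange factors and co-chaperones of HSP70, 2 were named and they went opposite ways, with a median of 0.40. BAG6, which escorts misplaced membrane proteins, had signals of 49.1 and 225, 7.98-fold higher. With DMSO the BAG6 spot lay inside the range of the negative control spots. BAG2, which promotes release of clients and inhibits the ubiquitin ligase CHIP, had 207 and 25.9, 4.59-fold lower. With LBH589 the BAG2 spot lay inside the range of the control spots on that array.

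Of the 27 genes of folding and stress response in the endoplasmic reticulum, 7 were named with 8 probes. Of these probes 6 were at least 2-fold higher (12.3% of all probes) and 1 was at least 2-fold lower (10.2% of all probes). The remaining 1 had a bound under 2-fold, and the median of the 8 was at least 2.45 (2.51 with own values). HYOU1 and DNAJC1, described above, are among the 6 that were higher. UGGT1, which marks misfolded glycoproteins for another round of folding, went from 26.0 to 144, 9.64-fold higher. With DMSO the UGGT1 spot lay inside the range of the negative control spots. SDF2L1, a partner of HSP70 and J-domain proteins there, went from 1245 to 4207, 5.88-fold higher. CRELD2, a gene known to rise under stress of this compartment, had 2 probes, and both were higher. They went from 332 to 1062 (5.56-fold higher) and from 1359 to 3539 (4.53-fold higher). ERN1, the sensor kinase also called IRE1, was not well above background with DMSO and had a signal of 21.4 with LBH589, at least 1.75-fold higher, though its log2 difference ran from 0.0075 without scaling to 3.13 with its own DMSO value. XBP1, the transcription factor whose mRNA ERN1 splices, went the other way, from 1431 to 59.9, 13.7-fold lower.

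The remaining lists held few named probes. HSP90 and its co-chaperones had 1 of 16 genes named, HSP90AA1, and the small heat shock proteins 1 of 11, HSPB1, with the values above. None of the 11 chaperonin genes was named. Of the 7 heat shock factors and their binding proteins, 1 was named, HSBP1L1, a relative of a protein that binds heat shock factor 1, and it went from 9623 to 79.0, 70.0-fold lower. Of the 16 genes of mitochondrial folding and quality control, the compartment of DNAJA3, 2 were named: DNAJA3 itself and CLPX, the unfoldase subunit of a mitochondrial protease, which went from 908 to 104, 5.03-fold lower. Their median was at least 1.41, since DNAJA3 enters at its bound, and 2.57 with its own value.

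Of the 12 genes that handle aggregates and ubiquitin, 1 was named, with 2 probes that were both higher and had a median of 2.33. SQSTM1, also called p62, which carries ubiquitinated proteins into autophagosomes, had 1 probe that went from 510 to 1555 (5.30-fold higher) and 1 from 537 to 1464 (4.74-fold higher).

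**Figure D4:**
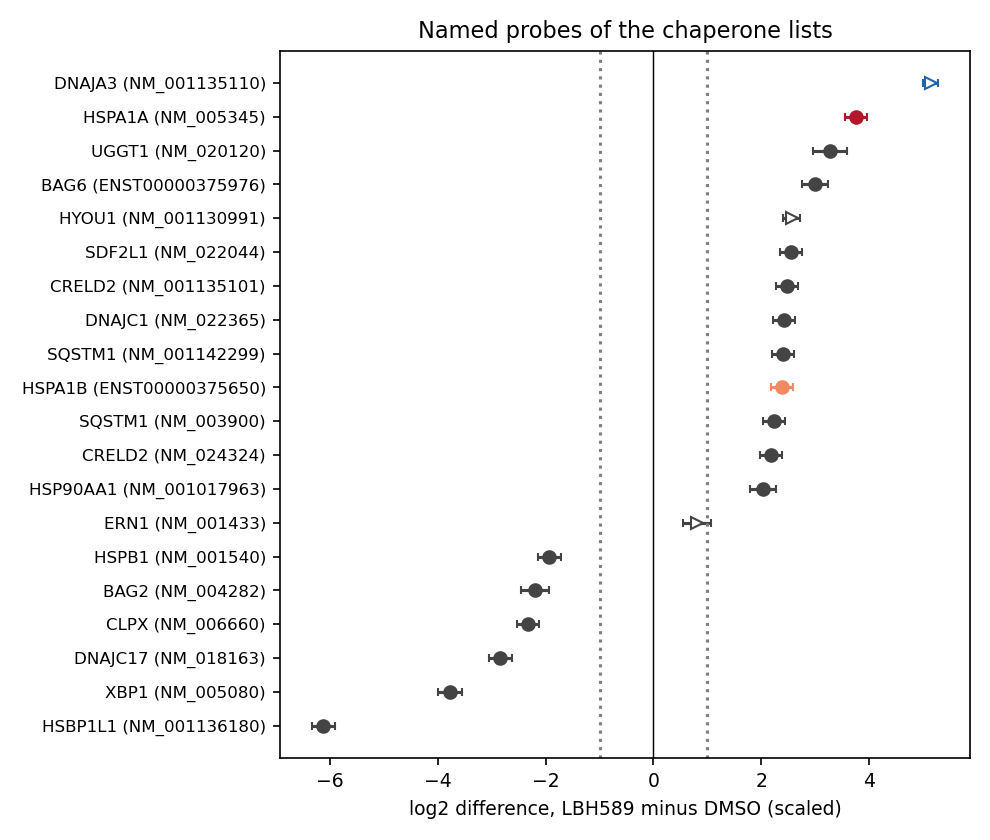
Scaled log2 difference of LBH589 minus DMSO for the 20 named probes of the chaperone lists, with transcript identifiers, error bars for the measurement error of the spots and dotted lines at 2-fold. Filled circles were measured on both arrays and open triangles are lower bounds. HSPA1A, HSPA1B and DNAJA3 are coloured, 13 probes lie right of the upper dotted line, and HSBP1L1 and XBP1 are the lowest, at -6.13 and -3.78.

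Some listed genes lie close to the HSPA1A and HSPA1B pair. Within 250 kb of each of these genes were 5 other listed mRNA probes, counting the other gene of the pair, and no listed long non-coding RNA. Within 250 kb of DNAJA3 there was no other listed probe of either kind. NEU1, a lysosomal sialidase 41.1 kb from HSPA1A and 28.8 kb from HSPA1B, went from 1715 to 9001, a difference of 3.19 or 9.13-fold (error 0.20). BAG6 lay 163 kb from HSPA1A, with the values above. C6orf25, a platelet receptor gene 88.8 kb from HSPA1A, went from 9.10 to 24.3 (at least 1.98-fold higher). C4A, a complement gene 164 kb from HSPA1A, went from 13.0 to 51.1 (at least 4.17-fold higher). NEU1, BAG6 and C4A passed 2-fold higher, as did 12.3% of all 41574 probes. Nothing is read from that count, since the rows hold changed probes. The bound of C6orf25 fell short of 2-fold, so whether C6orf25 passed is not known. Over the alternatives NEU1 stayed at 2.39 or more, while the log2 difference of C4A fell to 0.79 with normexp and that of C6orf25 to 0.19 without scaling. Probes of genes in this window that are not listed have no name here, so whether the region moved as a whole was not tested. C4A also has a near-identical copy, C4B, with which its probe may share RNA.

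Antisense transcripts of HSP70 and J-domain genes appeared among the listed long non-coding RNAs. RP11-498B4.5, given as antisense to HSPA12A, a distant HSP70 relative (hg19 chr10:118429614-118432250), went from 6.56, not well above background, to 36.8, at least 3.01-fold higher, though its log2 difference was 0.79 without scaling and 0.66 with normexp. RP11-167N4.2, given as antisense to DNAJB13, a J-domain gene known from sperm tails (hg19 chr11:73675108-73676077), went from 88.4 to 211, a difference of 2.05 or 4.15-fold (error 0.22), and of 1.34 with normexp. No antisense transcript of HSPA1A, HSPA1B or DNAJA3 was in the rows used here, which are part of the study's lists, so others may exist in rows not used.

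The listed mRNAs whose difference was nearest to that of HSPA1A and of HSPA1B were found over the 2 arrays, with the gap between the log2 differences as the measure. For HSPA1A, at 3.75, these were PAGE2B (3.75), NOVA2 (3.76) and RHCE (3.74). For HSPA1B, at 2.39, they were AZI1 (2.39), C7orf60 (2.38) and PAGE2 (2.38). None is given for DNAJA3, whose value is a bound. Over only 2 arrays such nearness is a matter of size alone, and it depends on the processing. With normexp and quantile normalization HSPA1A was at 3.69, PAGE2B at 2.08, NOVA2 at 2.84 and RHCE at 3.74, while HSPA1B was at 2.07, AZI1 at 0.92, C7orf60 at 1.30 and PAGE2 at 1.08.

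The identity of the cells could be checked only in part, since only changed genes in the rows used here are named, and a marker that is not named may or may not have changed. Of 12 markers of Wilms tumor and kidney progenitors, 1 was listed, MEOX1, at 11.6 with DMSO, not well above background, and 28.3 with LBH589 (at least 2.31-fold higher, but a log2 difference of 0.41 without scaling and 0.52 with normexp). Of 10 markers of Ewing sarcoma, a tumor of bone and soft tissue, 2 were listed and both were lower with LBH589. NKX2-2, a transcription factor, went from 290 to 6.42, where it was not well above background (at least 11.5-fold lower, but a log2 difference of -1.82, or 3.52-fold lower, with normexp), and CCND1, a cyclin that many cell types express, from 3993 to 457 (5.02-fold lower). Of 5 fibroblast markers COL1A1 was listed, from 83.1 to 341 (7.13-fold higher, a log2 difference of 2.83, and 1.99 with normexp), and none of 4 leukocyte or 4 epithelial markers was. The summed level of each marker list cannot be given from these rows. The part of these genes' changes in those of HSPA1A, HSPA1B and DNAJA3 was not tested.

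The arrays differed in brightness, which bears on every difference. The 75th percentile of the signal was 189 with DMSO and 108 with LBH589, and scaling added 0.80 to each log2 difference. Without it the median difference of the probes measured on both was -0.83 in place of -0.035, and 1802 probes were at least 2-fold higher and 16249 lower, in place of 5094 and 4252. HSPA1A, at 2.95, HSPA1B, at 1.59, and DNAJA3, at 4.35, were still higher. With normexp background correction (offset 50) followed by quantile normalization, the differences that moved most among the 20 probes of the chaperone lists were those of DNAJA3 (to 3.22), UGGT1 (to 1.51), HYOU1 (to 1.11), BAG6 (to 1.81), BAG2 (to -1.06), HSP90AA1 (to 1.05), XBP1 (to -2.92), HSBP1L1 (to -5.31) and HSPB1 (to -1.26), all in the direction given above. Genes printed on several spots gave a check of the scaling: GAPDH differed by 0.11, ACTB by 0.26 and RPS18 by 0.013 on the log2 scale, and 17 of the 20 repeated probes were under 2-fold. The SD between spots of 1 probe on 1 array had a median of 0.069 and ran from 0.031 to 0.36.

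The authors' own processed values gave differences in the same order, with DNAJA3 largest and HSPA1B smallest. In that deposited table, on the log2 scale, HSPA1A had 11.51 with DMSO and 15.10 with LBH589, HSPA1B 7.52 and 10.05, and DNAJA3 2.32 and 9.42. The DNAJA3 value with DMSO is the lowest in its column, so its place in the order depends on that low value. With normexp and quantile normalization of the scanner values, DNAJA3 (3.22) stood below HSPA1A (3.69). The columns had medians of 6.27 and 6.25, and each followed the scanner signal of its own array (Pearson r of 0.99998 with DMSO and 0.9996 with LBH589 across 33742 probes, which are not independent replicates). How the authors normalized between the arrays is not given in the sources used here.

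**Figure D5:**
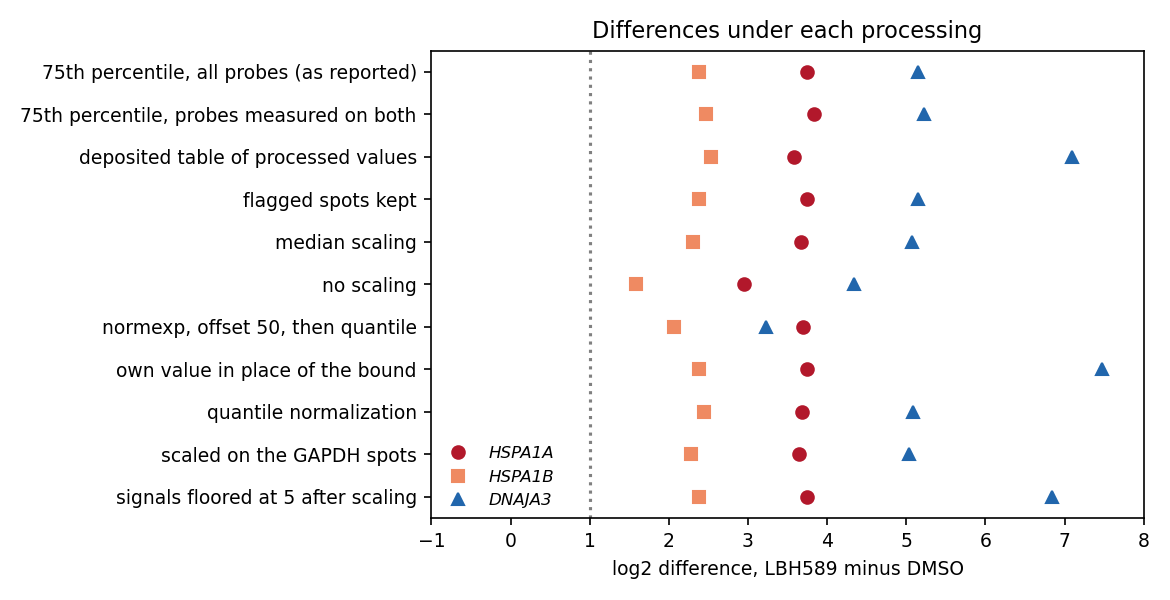
Log2 difference of LBH589 minus DMSO for HSPA1A, HSPA1B and DNAJA3 as reported and under 10 other ways of processing, with a dotted line at 2-fold. HSPA1A stayed between 2.95 and 3.83 and HSPA1B between 1.59 and 2.53, while DNAJA3, which has only a bound on the DMSO array, ran from 3.22 to 7.47.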

How the data were processed

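The authors deposited, for each of the 2 arrays, a file of spot values from Agilent Feature Extraction (version 11.0.1.1 per the file headers, 10.7.3.1 per the submitters' processing notes). It holds each spot's intensity, background-subtracted within the array and not normalized between arrays, with its error, and flags and spot types, which are deposited as a score of 0, 1 or -1. A second table, deposited by the authors, has log2 values of both arrays after their own normalization, with signals floored at 5.

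Of 61184 spots per array, control spots and spots flagged as outliers (26 with DMSO and 37 with LBH589) were left out. The log2 processed signals of a probe's spots were averaged, each array was set against its 75th percentile over 58921 probes, and DMSO was subtracted from LBH589. Where a probe was well above background on 1 array only, the value of the other was set to the higher of its own value and the lowest signal well above background there (21.3 with DMSO, 14.5 with LBH589), which gives a bound, "at least". Counts used the 41574 probes that at least 1 array measured well above background (38885 with DMSO, 37308 with LBH589, 34619 on both), at thresholds of 2-fold and 5-fold. No probe was saturated. No test was made, since each condition has 1 array, and the number of arrays limits the precision. The calculation was tested on simulated data.

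Names, positions (hg19, counted from 1) and probe sequences came from the rows of the study's tables used here, a shortened copy (1954 mRNA rows and 2769 rows of long non-coding RNAs). Their columns of fold changes and p-values, which are the authors' comparisons, were not used. Promoter sequences and motif shares came from a RefSeq table of GRCh38.p14. Protein sequences and an hg19 genome were not used here. Genes named were HSPA1A, HSPA1B and DNAJA3, other listed HSP and DNAJ symbols without a Y-linked one, listed genes of the chaperone and marker lists, the 3 listed mRNAs with the nearest difference, listed probes within 250 kb, listed non-coding RNAs associated with HSP or DNAJ genes, and probes printed on several spots, of which GAPDH, ACTB and RPS18 were singled out after their values were seen. A few genes that the rule names are left out here. The members and lists were chosen with earlier results of these data known. Alternatives were other scalings, quantile normalization, normexp (offset 50) with quantile normalization in limma 3.58.1, the deposited log2 table, a floor of 5, other filters, the own value in place of the bound and flagged spots kept. R 4.3.3, Python 3.11.15, numpy 2.4.6, pandas 2.3.3, Biopython 1.88 and matplotlib 3.10.9 were used.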

Additional observations from a re-analysis of the deposited data

How the results depend on the processing

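Each difference between the conditions that the report gives for HSPA1A, HSPA1B, DNAJA3 and 32 other probes was recomputed under 10 alternatives, and the counts past 2-fold over all probes and over the chaperone lists together under 12. A scaling on the GAPDH spots, and all alternatives for genes outside the chaperone lists, were chosen after seeing the data. The reference genes, the 5-fold count and the counts of single lists, of the lists without the 3 genes and of neighbours were not recomputed. HSPA1A, HSPA1B and DNAJA3 were higher with LBH589 in all of them, and at least 2-fold. HSPA1A moved by more than its measurement error without scaling (2.95 on the log2 scale), and HSPA1B without scaling (1.59) and with normexp (2.07). DNAJA3 moved most, to 4.35 without scaling, 3.22 with normexp, 6.84 with a floor of 5, 7.10 in the deposited table and 7.47 with its own value, and under normexp it stood below HSPA1A (3.69). Leaving out the scaling takes 0.80 off every difference by construction, and the other 4 settings that moved DNAJA3 set its dim DMSO value differently. Normexp and the deposited table also changed the normalization between arrays, and which of these changes moved DNAJA3 there was not tested. The cause of the HSPA1B value with normexp was not tested. All 320 values of the 32 other probes kept their direction, and 78 moved by more than the measurement error. Probes at least 2-fold higher numbered 5094 as reported, 9256 without a filter, 1802 without scaling and 2498 with normexp, and those lower 4252, 6560, 16249 and 2247. The chaperone lists had 13 probes higher (11 to 14 over the alternatives) and 6 lower in each. Signal over background limits DNAJA3, HYOU1, ERN1, C4A, C6orf25, RP11-498B4.5, MEOX1 and NKX2-2 to bounds. No replicate could be left out, and no paired analysis was possible because each condition has 1 array.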
